A study of Ovis aries with 3 samples.

Results

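Among single cells of whole sheep embryos, 2451 barcodes carried almost no transcripts of the mitochondrial genome, and these are the cells described here. They were selected on that measure. From 35823 deposited barcodes in 3 libraries, 32425 were kept at 200 to 6000 genes and 1000 to 30000 unique molecular identifiers (UMIs, each standing for 1 captured transcript). Members had under 0.3% of their UMIs on mitochondrial genes and under 5000 UMIs in all. They were set against 5085 kept barcodes under 5000 UMIs with 0.3 to 10% mitochondrial UMIs, called comparison barcodes. The E19 HSTS library came from a day 19 embryo of Hulunbuir short-tailed sheep, a breed with a missense mutation in *T*, the mesoderm and notochord factor Brachyury. The E19 HS and E16 HS libraries came from day 19 and day 16 embryos of Hu sheep, which carry the wild-type allele. Each condition had 1 library, the labels name an embryo for each, and the methods count 3 embryos for E16 HS, whose cells the deposited matrix does not tell apart. Values for the libraries are given in this order throughout, E19 HSTS first and E16 HS last, and "against" sets the members before the comparison barcodes. All embryos were digested with collagenase II and IV, and red blood cells were lysed in all 3 preparations before about 17000 cells were loaded. The libraries held between 94754580 and 128271878 UMIs, and each result below was compared within libraries, between the members and the comparison barcodes of the same suspension.

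Mitochondria keep a small genome of their own. It encodes core subunits of the respiratory chain and of the ATP synthase, and the transcripts are made, polyadenylated and translated inside the organelle. All other mitochondrial proteins are encoded in the nucleus, translated on cytosolic ribosomes and imported. Single-cell studies usually discard barcodes with a high mitochondrial share, while a very low share is seldom filtered. Mature mammalian red cells lose their mitochondria, and nuclei stripped of cytoplasm carry few mitochondrial transcripts.

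The members were close to empty of mitochondrial transcripts and formed most of a peak at 0. The deposited annotation held 11 protein-coding genes of the mitochondrial genome by their MT- symbols. The median member had 1 mitochondrial UMI in each library, against medians of 132, 127 and 125 for comparison barcodes. No mitochondrial UMI at all was found in 232 of 593 members (39.1%) of the first library, 280 of 735 (38.1%) of the next and 314 of 1123 (28.0%) of the last. Summed over barcodes, 0.0745%, 0.0814% and 0.0681% of the members' UMIs were mitochondrial, against 4.29%, 3.71% and 4.03% in the comparison barcodes. These values chose the members and are given as a description only.

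**Figure D1:**
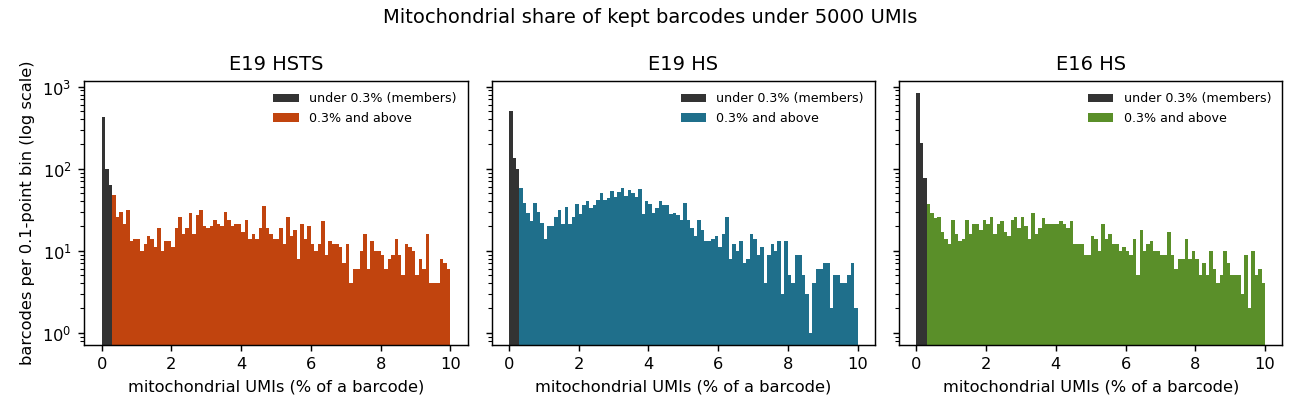
Kept barcodes under 5000 UMIs by mitochondrial share (x axis, percent of a barcode's UMIs, in bins of 0.1 points) in the 3 libraries, with the number of barcodes on a log scale. The first bin, under 0.1%, held 431, 500 and 838 barcodes of the libraries from left to right, and a second broad hump lay at several percent.

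The limit of 0.3% lay on the falling slope of the peak at 0, with no gap in the counts there. Just inside it, from 0.2 to 0.3%, were 63, 98 and 78 barcodes, and just outside it, from 0.3 to 0.4%, were 48, 59 and 37. Every one of the 11 genes was low together. *MT-CYTB*, the cytochrome b of complex III, stood at 1.40, 1.49 and 1.82 UMIs per 10000 UMIs in members against 82.8, 66.9 and 107. *MT-ND4*, a proton-pumping subunit of complex I, stood at 1.44, 1.67 and 1.17 against 79.8, 70.2 and 63.3. *MT-COX3*, a subunit of cytochrome c oxidase, stood at 1.19, 1.76 and 0.82 against 68.2, 82.7 and 62.2. The few remaining mitochondrial UMIs were divided among the genes much as in the comparison barcodes of the same library. *MT-CYTB* made up 18.7%, 18.3% and 26.8% of them in members and 19.3%, 18.03% and 26.4% in comparison barcodes, so that the higher share in E16 HS was present in both. *MT-COX3* made up 16.0%, 21.6% and 12.1% in members and 15.9%, 22.3% and 15.4% in comparison barcodes. Whether these UMIs came from free RNA in the droplets was not tested.

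The genes ENSOARG00020000003 and ENSOARG00020000005, listed without a symbol, were low in members to nearly the same degree. The first stood at 202, 285 and 74.9 CPM in members (UMIs per 1000000 non-mitochondrial UMIs, the scale of all gene levels below), against 11787, 10361 and 4896 in comparison barcodes. Its log2 fold change was -5.68 (SE 0.15, adjusted p = 2.59e-08). The second stood at 285, 465 and 89.5 CPM against 14794, 15450 and 5316, with a log2 fold change of -5.54 (SE 0.15, adjusted p = 2.59e-08). The selection did not use these genes, but whether they lie on the mitochondrial genome was not tested. If they do, their low level follows from the selection. Having no MT- symbol, they were counted as non-mitochondrial. All adjusted p-values are from the quasi-likelihood test of edgeR on UMIs summed per library, with the library as a block, over 9783 non-mitochondrial genes. Standard errors are approximate, from the test statistic, and with 1 suspension per condition the replicates are 3 embryo preparations of different breed or day.

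Members made up 5.94% of the kept barcodes of E19 HSTS (exact 95% binomial interval 5.49 to 6.42%), 6.79% of those of E19 HS (6.32 to 7.28%) and 9.67% in E16 HS (9.14 to 10.2%). Of the kept barcodes under 5000 UMIs they made up 24.7% (23.0 to 26.5%), 23.5% (22.1 to 25.1%) and 40.3% (38.5 to 42.2%). The interval of E16 HS lay above those of both E19 libraries, and those of the E19 libraries overlapped on both measures. These intervals cover counting error only, and with 1 library each the day, the breed and the preparation cannot be told apart.

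The share of barcodes under 0.3% depended steeply on depth. Among barcodes of 1000 to 1500 UMIs it was 44.2%, 54.7% and 55.6%, and among those of 4000 to 5000 UMIs it was 5.16%, 2.10% and 19.7%. From 10000 UMIs upwards it was 0.148%, 0.139% and 1.60%. At 3000 to 4000 UMIs the E16 HS share of 35.5% (31.7 to 39.4%) was already far above the 12.3% (9.45 to 15.7%) of E19 HSTS and the 7.92% (5.91 to 10.3%) of E19 HS.

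**Figure D2:**
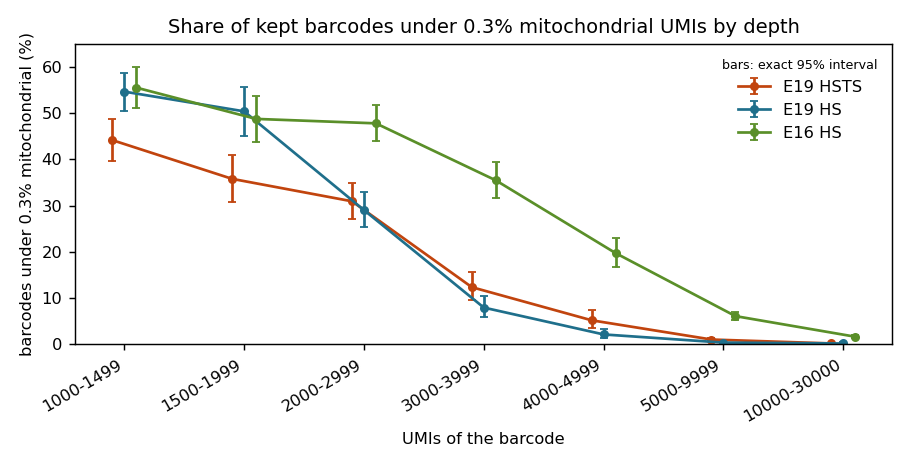
Share of kept barcodes with under 0.3% mitochondrial UMIs (y axis, percent) by the barcode's UMIs (x axis, 7 ranges) in each library, with exact 95% binomial intervals. The share fell from 44.2 to 55.6% at the lowest depth to 0.139 to 1.60% at the highest, and E16 HS stayed above both E19 libraries from 2000 UMIs upwards.

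Members were shallower than the comparison barcodes even under the common limit of 5000 UMIs. Their median depth was 1811, 1596 and 2269 UMIs, against 3411, 3829 and 3458. They also held fewer genes at equal depth. With each barcode reduced to 1000 non-mitochondrial UMIs, the median number of genes was 442 in members of E19 HSTS, against 493 in comparison barcodes. It was 415 against 462 in E19 HS and 441 against 501 in E16 HS. For this count 1, 2 and 0 members and 13, 12 and 7 comparison barcodes were left out because they held fewer UMIs. The unreduced medians were 650, 557 and 749 genes in members and 1120, 1109 and 1127 in comparison barcodes. Any 2 libraries shared 38 to 42 of their deposited barcode sequences, and at most 1 member was shared.

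The rest of the transcriptome differed between members and comparison barcodes too. Of 9783 genes tested, 445 were higher in members (4.55%) and 3188 were lower (32.6%) when the sums were scaled to the total of non-mitochondrial UMIs. The median log2 fold change over all genes tested was then -0.49. Under TMM scaling, which centres the bulk of the genes, log2 fold changes rose by a median of 0.43 and their median was -0.07. The calls were then 1621 higher (16.6%) and 1720 lower (17.6%). All 445 higher genes were among the 1621, and all 1720 lower genes were among the 3188. The share of lower genes among the calls was thus 87.8% under the first scale and 51.5% under the second. Log2 fold changes below are on the first scale, on which a gene at -0.49 moved with the median gene. Of the called genes, 437 of the 445 and 3145 of the 3188 changed in the same direction in all 3 libraries. With only barcodes of 1000 to 3000 UMIs on both sides, 6991 genes could be tested, of which 317 were higher and 1835 lower. Without E19 HSTS the count of higher genes was 198, while it was 334 without E19 HS and 425 without E16 HS.

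**Figure D3:**
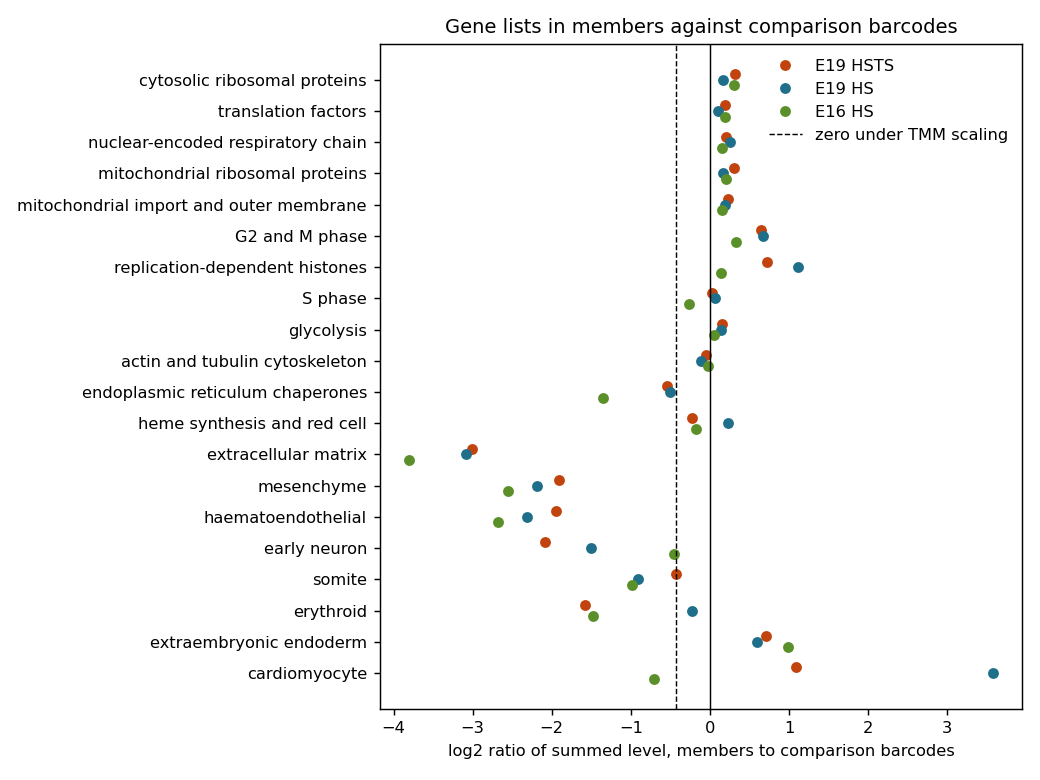
Log2 ratio of the summed level of 20 gene lists, members over comparison barcodes (x axis), by library, on the scale of the non-mitochondrial total (solid line at 0). The dashed line marks 0 under TMM scaling, placed 0.43 lower by the median shift over genes. Extracellular matrix genes lay near -3 to -4 in every library, ribosomal protein genes lay just above 0, and the S phase, glycolysis and cytoskeleton lists lay between the lines or close to them, so that their direction depends on the scaling.

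*H1-5* and *H1-1*, 2 linker histone genes, and *CKS2*, which encodes a small subunit that binds cyclin-dependent kinases, were named with the selection as marks of these cells, with earlier results of the same data known. Their levels are therefore no independent evidence. *H1-5* stood at 395, 619 and 137 CPM in members and at 188, 184 and 113 CPM in comparison barcodes (log2 fold change 1.05, SE 0.22, adjusted p = 0.00442). Members were clearly above comparison barcodes in the E19 libraries and only slightly above in E16 HS. *H1-1* followed the same order, with 166, 137 and 43.3 CPM against 82.1, 53.9 and 35.9 (log2 fold change 0.91, SE 0.18, adjusted p = 0.0039). *CKS2* was more even, with 627, 561 and 640 CPM in members against 294, 256 and 385 in comparison barcodes (log2 fold change 0.98, SE 0.10, adjusted p = 7.72e-05). The lowest *CKS2* level in members, 561 CPM, lay above the highest in comparison barcodes, 385 CPM, whereas the ranges of both histone genes overlapped across libraries.

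Replication-dependent histones are made in S phase, and most of their transcripts end in a stem-loop in place of a poly(A) tail. Leaving *H1-5* and *H1-1* out, 5 of 14 tested were higher and 0 lower, with a median of 0.50. Of all genes tested, 4.55% were higher and 32.6% lower. Under TMM scaling 9 of the 14 were higher and 0 lower, beside 16.6% and 17.6% of all genes. With *H1-5* and *H1-1* included, 7 were higher, which became 5 to 10 with a library left out and 0 without the block. *HIST2H2AC*, a core histone of this group, stood at 1013, 492 and 164 CPM against 516, 214 and 136 (log2 fold change 0.82, adjusted p = 0.00228). Together the 19 annotated genes, *H1-5* and *H1-1* included, took 0.323%, 0.313% and 0.0822% of the members' UMIs and 0.197%, 0.145% and 0.0745% of those of comparison barcodes. Histone genes are nearly identical copies of each other, so the split between single genes is uncertain. Of 4 replication-independent histones tested, 3 were higher and 0 lower. *H2AZ1*, the variant found at promoters, stood at 1730, 1661 and 2158 CPM against 1086, 1097 and 1649 (log2 fold change 0.55, adjusted p = 0.000355). Among 7 genes of histone transcript processing and chaperones 0 were higher and 2 lower, with *CASP8AP2*, needed for histone gene transcription, at -1.39 (adjusted p = 6.25e-05).

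Genes of mitosis were higher as a group. Of 15 genes of the G2 and M phases tested beside *CKS2*, 8 were higher and 0 lower, with a median of 0.49. Of all genes tested, 4.55% were higher and 32.6% lower. Under TMM scaling 14 of the 15 were higher and 0 lower, beside 16.6% and 17.6% of all genes. With *CKS2* included, 9 were higher, which became 7 to 11 with a library left out and 7 without the block. *CDK1*, the kinase that drives entry into mitosis, stood at 83.0, 46.0 and 50.2 CPM in members against 23.5, 12.7 and 30.7 (log2 fold change 1.42, SE 0.23, adjusted p = 0.00109). *AURKA*, a kinase of the spindle poles, stood at 81.3, 54.1 and 59.6 CPM against 35.3, 22.0 and 30.5 (log2 fold change 1.15, adjusted p = 0.00026). *CKS1B*, the paralogue of *CKS2*, reached a log2 fold change of 1.09 (adjusted p = 0.000246). *TUBB4B*, a tubulin of the spindle and of cilia, belongs to the cytoskeleton list given below and reached 0.65 (adjusted p = 0.001). Genes of S phase were mixed, with 3 higher and 4 lower of 21, a median of -0.03 that became 0.40 under TMM scaling, and counts of 8 and 0 there. *TYMS*, which makes thymidylate for DNA synthesis, was higher at 67.4, 54.1 and 86.6 CPM against 39.0, 32.6 and 56.9 (adjusted p = 0.00234). *MCM7*, a subunit of the replicative helicase, stood at 104, 75.6 and 119 CPM against 143, 111 and 187 (log2 fold change -0.56, adjusted p = 0.00312), a call that was absent under TMM scaling (adjusted p = 0.404).

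**Figure D4:**
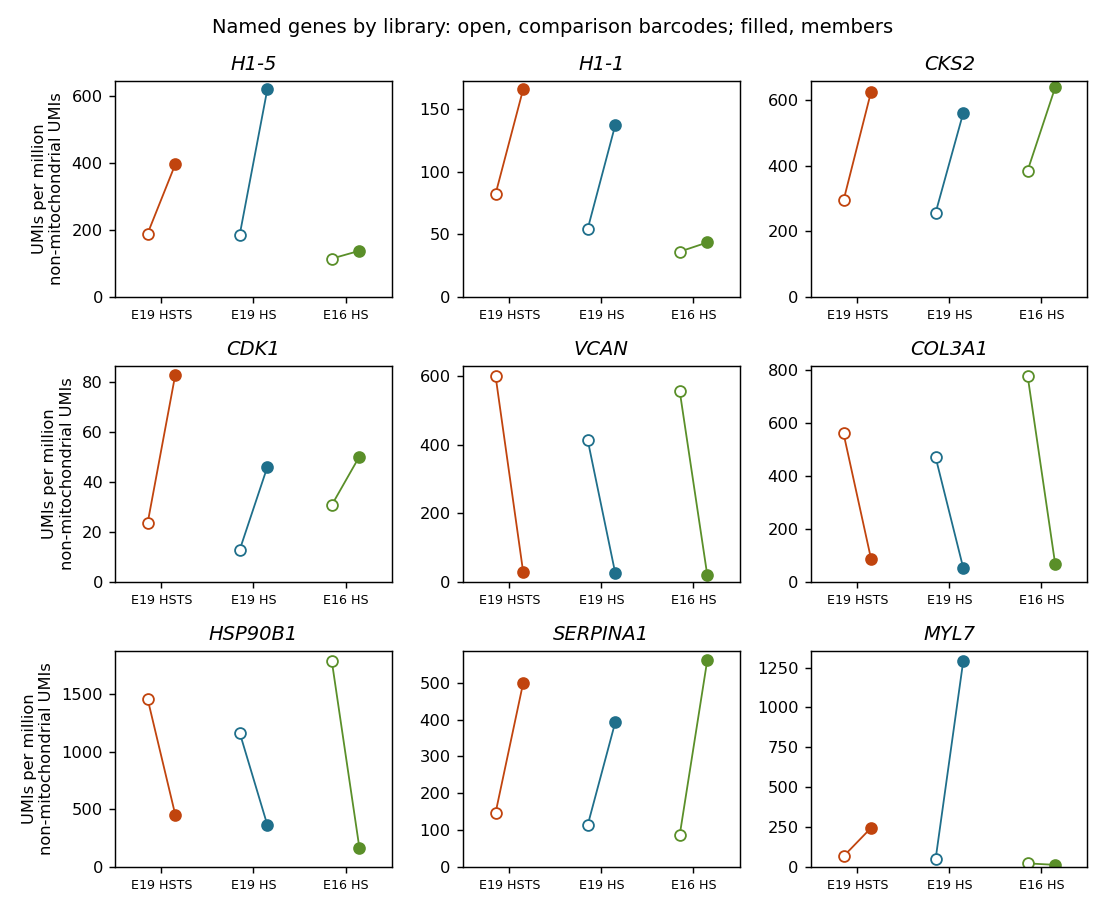
Levels of 9 genes in CPM (y axis, from 0) in the sum of comparison barcodes (open) and of members (filled) of each library, 1 sum per point. *CKS2*, *CDK1* and *SERPINA1* were higher in members of all 3 libraries, *VCAN*, *COL3A1* and *HSP90B1* were lower in all 3, *H1-5* and *H1-1* rose little in E16 HS, and *MYL7* was higher in the E19 libraries only.

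The nuclear genes of mitochondria did not share the loss of the mitochondrial genome's transcripts. Among all genes tested, 4.55% were higher and 32.6% lower, and 16.6% and 17.6% under TMM scaling. Of 62 nuclear-encoded respiratory chain genes tested, 19 were higher and 2 lower, with a median of 0.20, and under TMM scaling 55 were higher and 0 lower. The 19 became 10 without E19 HSTS, 11 without E19 HS and 2 without the library as a block. The list took 2.18%, 2.55% and 2.36% of the members' UMIs, against 1.89%, 2.14% and 2.12%. *ATP5PO*, a stalk subunit of the ATP synthase, stood at 717, 858 and 904 CPM against 488, 571 and 613 (log2 fold change 0.57, SE 0.07, adjusted p = 0.000297). *UQCRQ*, a subunit of complex III beside the mitochondrially encoded cytochrome b, stood at 341, 401 and 291 CPM against 237, 258 and 237 (log2 fold change 0.48, adjusted p = 0.00369). Of 66 mitochondrial ribosomal protein genes, 15 were higher and 0 lower, and 50 and 0 under TMM scaling, but 2 were higher without E19 HSTS, 9 below 3000 UMIs and 0 without the block. *MRPS6* stood at 145, 112 and 175 CPM against 89.5, 78.6 and 111 (log2 fold change 0.62, adjusted p = 0.00174). Of 27 genes of import and the outer membrane, 5 were higher and 1 lower, and 16 and 0 under TMM scaling. *TOMM5*, part of the outer membrane pore, was among the higher ones, at 230, 224 and 269 CPM against 154, 149 and 183 (log2 fold change 0.57, adjusted p = 0.00126). *TIMM9*, a chaperone of the intermembrane space, stood at 57.5, 57.1 and 66.2 CPM against 35.9, 39.7 and 43.1 (adjusted p = 0.00571).

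Of 18 genes that transcribe and maintain the mitochondrial genome, 1 was higher and 4 were lower, beside the 4.55% and 32.6% of all genes, with a median of -0.24 that became 0.19 under TMM scaling, where 2 were higher and 2 lower. *POLG*, the polymerase that copies mitochondrial DNA, was low at 3.29, 1.48 and 3.64 CPM against 11.1, 7.11 and 13.8, on 16 UMIs in members (log2 fold change -1.92, SE 0.33, adjusted p = 0.00157). *LRPPRC*, which stabilises mitochondrial messengers, stood at 44.4, 22.2 and 26.5 CPM against 62.1, 44.1 and 62.1 (log2 fold change -0.91, adjusted p = 0.00294). Of 15 genes of mitophagy, the removal of mitochondria by autophagy, 0 were higher and 2 lower, and under TMM scaling 5 were higher and 0 lower. *PINK1*, the kinase that marks damaged mitochondria, stood at 27.1, 20.02 and 20.001 CPM against 30.9, 29.8 and 39.8 and was not called under TMM scaling (adjusted p = 0.479).

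Cytosolic ribosomal protein genes took 31.1%, 32.4% and 29.5% of the members' non-mitochondrial UMIs, against 25.02%, 28.8% and 23.9%. The lowest library of the members was thus above the highest of the comparison barcodes. Of 52 genes tested, 44 were higher and 1 was lower, with a median of 0.28, against the 4.55% and 32.6% of all genes given above. The 44 became 28 without E19 HSTS, 29 without E16 HS and 3 without the block. *RPS26* stood at 306, 312 and 244 CPM against 216, 229 and 157 (log2 fold change 0.53, adjusted p = 0.00189). The lower gene was *RPL4*, at 1095, 1014 and 1497 CPM against 2325, 1996 and 2534 (log2 fold change -0.94, SE 0.07, adjusted p = 2.29e-05), which remained lower under TMM scaling (adjusted p = 0.00163). Copies of ribosomal protein genes share reads, so values of single members are uncertain. Of 15 translation factors 6 were higher and 1 lower, and 10 and 1 under TMM scaling, beside 16.6% and 17.6% of all genes there. *EEF1G*, of the elongation complex, stood at 1973, 1959 and 1939 CPM against 1494, 1698 and 1676 (adjusted p = 0.00976). *EIF3A*, the largest initiation factor subunit, stood at 165, 106 and 208 CPM against 383, 265 and 466 (log2 fold change -1.23, adjusted p = 1.8e-05).

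Transcripts of secreted matrix proteins were strongly reduced in members. These messengers are translated on ribosomes bound to the endoplasmic reticulum. Of 17 extracellular matrix genes tested, 16 were lower and 0 higher under both scales, with a median log2 fold change of -3.17 on the first. Among all genes tested, 32.6% were lower on the first scale and 17.6% under TMM scaling. The list took 0.0290%, 0.0225% and 0.0223% of the members' UMIs against 0.233%, 0.191% and 0.313%. *VCAN*, a large matrix proteoglycan, stood at 27.9, 25.2 and 18.9 CPM in members, against 601, 415 and 558 in comparison barcodes (log2 fold change -4.48, SE 0.16, adjusted p = 1.51e-07). *COL3A1*, a fibrillar collagen, stood at 84.6, 52.7 and 65.1 CPM against 559, 470 and 777 (log2 fold change -3.17, SE 0.15, adjusted p = 1.48e-06). *COL5A2*, another, stood at 9.86, 8.16 and 5.45 CPM against 92.4, 89.3 and 89.5 (adjusted p = 2.66e-06), and *FBN2*, a fibrillin of elastic fibres, at 5.75, 4.45 and 2.18 CPM against 70.6, 42.0 and 53.1 (adjusted p = 9.25e-06). In none of these genes, named for large changes, did the groups overlap, and how many of all genes tested do the same was not counted.

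Chaperones and translocation subunits of the endoplasmic reticulum were lower too, with 10 lower and 0 higher of 18 and a median of -0.98, and 8 and 1 under TMM scaling. Of all genes tested, 32.6% were lower, and 17.6% under TMM scaling. The 10 became 4 with DESeq2. *HSP90B1*, the reticulum's HSP90, stood at 453, 365 and 167 CPM against 1459, 1166 and 1792 (log2 fold change -2.25, SE 0.28, adjusted p = 0.000314). *HSPA5*, its HSP70, stood at 102, 73.4 and 30.2 CPM against 394, 299 and 293 (log2 fold change -2.40, adjusted p = 5.38e-05). Both were lowest in members of E16 HS. *HYOU1*, another chaperone, reached -2.85 (adjusted p = 0.000321) on 12 UMIs in members.

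The same reduction appeared in every class of assigned barcodes that could be compared. Barcodes were assigned to reference classes by multinomial likelihood, described below. Each class with at least 10 members and 10 comparison barcodes in a library was compared on its own. This comparison was chosen after the data were seen. The matrix list was lower in members in 32 of 32 such pairs, with a median log2 ratio of -3.07 and a range of -5.00 to -0.27. Some of these ratios rest on very few UMIs. Early neuron-like and extraembryonic endoderm-like members of E19 HS, for example, held 1 matrix UMI per class. The reticulum list was lower in 32 of 32, with a median of -0.88, and ribosomal protein genes were higher in 32 of 32, with a median of 0.22. Genes of the G2 and M phases were higher in 28 of 32, replication-dependent histones in 28 of 32, nuclear-encoded respiratory chain genes in 30 of 32 and mitochondrial ribosomal protein genes in 30 of 32. The pairs share libraries and are not independent. They match barcodes by label only, so the cell type may differ within a pair. For neural crest-like members, and caudal progenitor-like members of the E19 libraries, few marker transcripts bore the label out, as given below. Haematoendothelial-like members held 16, 22 and 10 UMIs of their markers, or 326, 755 and 162 CPM against 3102, 3553 and 1130 in comparison barcodes of the class. Mesenchyme-like members of E16 HS held 2119 CPM against 23427, whereas urogenital-like members held 190, 128 and 172 CPM against 170, 204 and 141.

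Some genes were almost absent from members. *NRP2*, a receptor for semaphorins and vascular growth factors, had 0 UMIs in the members of all libraries and 116 in comparison barcodes. Taking 3 counts over the group as a floor, it was at least 12.5-fold lower in members. *HMCN1*, *THBS1*, *FAT3*, *MFSD1*, *STAB1* and *CHRNA3* had 1 UMI each in members, against 104 to 183 in comparison barcodes. The ratio of *HMCN1*, a matrix protein of the fibulin family, was 0.0187 (exact interval 0.00047 to 0.105). The ratio of *STAB1*, an endothelial scavenger receptor, was 0.0298 (0.000747 to 0.17). *THSD7A* stood at 1.64, 1.48 and 0.364 CPM against 27.7, 21.9 and 29.1 (log2 fold change -4.75, SE 0.39, adjusted p = 2.88e-05). These genes, named for large changes, encode secreted or membrane proteins, and how many of all lower genes do so was not counted. Of the 3188 lower genes, 58 had 0 UMIs in members. Of 23 splicing genes 3 were higher and 4 lower, beside 4.55% and 32.6% of all genes. Under TMM scaling 13 were higher and 1 lower, beside 16.6% and 17.6%. Among them *SRSF7* stood out at 28.8, 14.8 and 20.4 CPM against 190, 163 and 216 (log2 fold change -3.19, SE 0.16, adjusted p = 2.34e-06). Its relative *SRSF3* went the other way, at 226, 162 and 142 CPM against 152, 133 and 123 (log2 fold change 0.35, adjusted p = 0.031).

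In several housekeeping lists the balance of calls turned with the scaling, beside the 4.55% higher and 32.6% lower of all genes on the first scale. Of 16 glycolysis genes 1 was higher and 3 were lower, with a median of 0.10, and 9 and 1 under TMM scaling. *ALDOA*, an aldolase, stood at 236, 343 and 394 CPM against 178, 272 and 352 (log2 fold change 0.30, adjusted p = 0.0284), while *SLC2A1*, the membrane glucose transporter, stood at 4.11, 0.742 and 1.45 CPM against 10.0, 6.30 and 20.6 (log2 fold change -2.82, adjusted p = 0.00143). Of 13 cytoskeleton genes 2 were higher and 2 lower, and 8 and 0 under TMM scaling. Of 14 chromatin proteins 4 were higher and 3 lower, and 9 and 1 under TMM scaling, with *CHD4*, a nucleosome remodeller, at -1.10 (adjusted p = 4.70e-05). Of 12 genes of apoptosis and p53 response 1 was higher and 2 were lower, under both scales. Of 16 immediate early and stress genes 1 was higher and 6 were lower, and 3 and 2 under TMM scaling, with *JUN*, an immediate early transcription factor, at 122, 92.7 and 27.6 CPM against 260, 273 and 60.5 (log2 fold change -1.27, adjusted p = 8.16e-05). Of 8 noncoding RNAs that mark nuclei, such as *MALAT1*, 0 are in the annotation, so the share of nuclear RNA could not be read from them.

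Which lineages the members came from was read in 2 ways. Reference classes were clusters of barcodes with at least 5000 UMIs and 0.3 to 10% mitochondrial UMIs, named from marker genes only as resembling a cell type. Each member and comparison barcode went to the class of highest multinomial likelihood, or to that of its 15 nearest neighbours, over variable genes without mitochondrial, histone, ribosomal protein and cell cycle genes. On 3000 reference barcodes reduced to 1500 UMIs, 90.2% and 90.9% returned to their own class. Those barcodes had 0.3 to 10% mitochondrial UMIs and had taken part in the clustering. The accuracy on members was therefore not measured, and the 2 methods differed strongly for some classes of members, as given below. An unnamed class led by *MYL4* and *POSTN* returned 62.0% of its own by likelihood, the least of 14 classes, and took 14.0%, 15.9% and 5.70% of members. No class held more than 32.5% of any library's members under the likelihood.

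Somite-like barcodes, of the mesoderm that forms vertebrae and muscle, were rarer among members under every assignment. They made up 12.0% of members of E19 HSTS (9.47 to 14.9%) against 30.9% of comparison barcodes (28.5 to 33.3%), 16.3% (13.7 to 19.2%) against 30.3% (28.4 to 32.2%) in E19 HS, and 1.60% (0.953 to 2.52%) against 15.7% (13.9 to 17.8%) in E16 HS. By nearest neighbours the shares were 21.2%, 19.3% and 9.26% against 27.3%, 24.6% and 21.5%. Spinal cord-like barcodes made up 18.4%, 32.5% and 5.34% of members by likelihood against 28.8%, 30.8% and 8.09%. Only in E19 HSTS did the intervals of this class separate, at 15.3 to 21.7% against 26.5 to 31.2%. Markers bore the label out in part. Spinal cord genes such as *SOX2* and *PAX6* summed to 476, 397 and 335 CPM in members of that class and to 50.1, 56.8 and 104 CPM in the other members, with 821, 737 and 636 CPM in comparison barcodes of the class. The classes were assigned with such genes among others, so these levels are a description.

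Caudal progenitor-like and gut-like shares depended on the method. By likelihood 16.4%, 4.49% and 30.7% of members were caudal progenitor-like, the progenitors of the tail bud, against 1.42%, 0.995% and 17.8% of comparison barcodes, and by nearest neighbours 0.169%, 0.136% and 6.86% against 0.135%, 0.905% and 8.23%. In E19 HSTS the 97 members so named held 1 UMI of the caudal progenitor markers in all, in E19 HS the 33 held 2, and in E16 HS the 345 held 110, or 128 CPM, against 170 CPM in comparison barcodes of the class. The markers thus went against the label in the E19 libraries, where these barcodes are better described as unresolved. Gut-like members, by likelihood 11.1%, 5.58% and 31.8% against 3.25%, 2.94% and 14.7%, carried the epithelial markers at 248, 366 and 213 CPM against 752, 835 and 687 CPM in comparison barcodes of the class. Neural crest-like members made up 7.25%, 11.3% and 2.94% by likelihood against 1.76%, 1.76% and 2.79%, and 0.843%, 2.18% and 0.801% by nearest neighbours against 1.01%, 0.86% and 1.36%. By likelihood the 43, 83 and 33 members of the class held only 3, 8 and 5 UMIs of neural crest markers, or 31.8, 53.5 and 65.7 CPM against 192, 109 and 212, so this label rests on few marker transcripts.

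**Figure D5:**
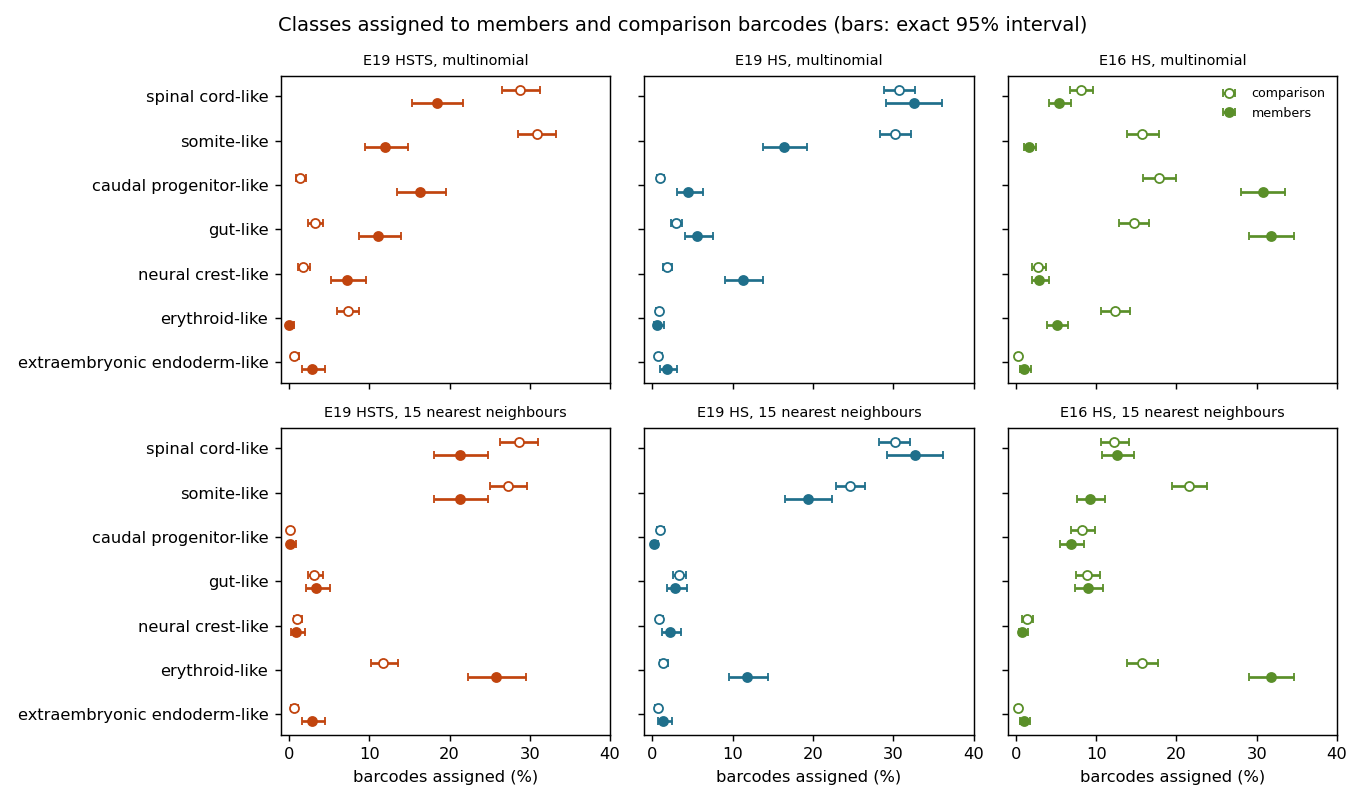
Share of members (filled) and comparison barcodes (open) assigned to 7 classes (x axis, percent, exact 95% binomial intervals) in each library, by multinomial likelihood (top) and by 15 nearest neighbours (bottom). Somite-like shares were lower in members in all 6 panels, whereas the erythroid-like share of members was 0 to 5.08% at the top and 11.8 to 31.8% at the bottom.

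Erythroid markers were scarce in members, although the share assigned to the class depended on the method. By likelihood 0 of 593 members of E19 HSTS were erythroid-like, which allows a share of up to 0.506%, against 7.31% of comparison barcodes. The shares were 0.544% against 0.769% in E19 HS and 5.08% against 12.3% in E16 HS. By nearest neighbours 25.8%, 11.8% and 31.8% of members were erythroid-like, against 11.8%, 1.36% and 15.7%, but these members carried erythroid markers at only 217, 334 and 530 CPM, where comparison barcodes of the class held 3781, 2640 and 4513 CPM. All 8 erythroid genes tested were lower in members, and 7 under TMM scaling, beside 32.6% and 17.6% of all genes. The 8 became 5 without E16 HS, 4 with DESeq2 and 0 without the block. The marker sum was 151, 87.5 and 283 CPM against 451, 102 and 787, so that E19 HS differed least. Of 15 genes of heme synthesis and the red cell 10 were lower, and 6 under TMM scaling, while their sum in E19 HS was higher in members, at 5746 against 4911 CPM. *AHSP*, the chaperone of alpha globin, stood at 23.8, 8.16 and 109 CPM against 88.0, 9.12 and 276 (log2 fold change -1.35, SE 0.22, adjusted p = 0.00112). *ALAS2*, the first enzyme of heme synthesis in red cells, stood at 7.39, 3.71 and 8.73 CPM against 47.3, 3.08 and 81.5 (log2 fold change -2.72, adjusted p = 0.000614), and was not lower in E19 HS. *BLVRB*, a biliverdin reductase of red cells, stood at 113, 74.2 and 155 CPM against 242, 86.4 and 340 and was not called under TMM scaling (adjusted p = 0.0609). *KLF1* and *HEMGN*, nuclear factors of the lineage, had 12 and 14 UMIs in members and 184 and 306 in comparison barcodes. *SLC4A1*, the band 3 anion exchanger, had 0 and 52 UMIs, at least 5.59-fold lower in members.

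The share of endoderm that makes plasma proteins was higher in members than in comparison barcodes of each library under all 5 assignments tried. Extraembryonic endoderm-like barcodes made up 2.87% of members in E19 HSTS (1.68 to 4.55%), 1.77% in the next (0.945 to 3.01%) and 1.07% in the last (0.553 to 1.86%), against 0.677%, 0.724% and 0.215%. The intervals separated in E19 HSTS only, and the shares by nearest neighbours were 2.87%, 1.36% and 0.98%. *SERPINA1*, the liver protease inhibitor, stood at 500, 393 and 562 CPM in members against 147, 113 and 85.8 (log2 fold change 2.09, SE 0.17, adjusted p = 2.57e-05). *APOA2*, a lipoprotein, stood at 299, 257 and 208 CPM against 131, 102 and 80.4 (log2 fold change 1.29, SE 0.10, adjusted p = 2.01e-05). *AHSG*, or fetuin A, stood at 279, 198 and 494 CPM against 168, 86.8 and 163 (log2 fold change 1.18, adjusted p = 0.000283), and *FGG*, a fibrinogen chain, reached 1.87 (adjusted p = 0.00152). Of the 6 endoderm markers tested 3 were higher, beside 4.55% of all genes, and *APOA1*, the main protein of high-density lipoprotein, stood at -0.04 (adjusted p = 0.854). These rises were carried by few barcodes. Of the *SERPINA1* UMIs of members, 596 of 609, 526 of 530 and 1509 of 1546 lay in the 17, 13 and 12 barcodes of this class. Without the class on both sides *SERPINA1* stood at a log2 fold change of -0.36 (adjusted p = 0.378), and below 3000 UMIs at 0.62 (adjusted p = 0.285). Below 3000 UMIs *APOA2* stood at 0.08 (adjusted p = 0.861) and *FGG* at 0.74 (adjusted p = 0.362). In the 17, 13 and 12 members the endoderm markers summed to 14024, 17697 and 57187 CPM, below the 34480, 32229 and 78450 CPM of comparison barcodes of the class.

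Heart muscle transcripts were higher in members of the E19 libraries, and mainly in E19 HS. Of 6 cardiomyocyte markers tested 2 were higher and 1 lower, beside 4.55% and 32.6% of all genes. Under TMM scaling 5 were higher and 1 lower, beside 16.6% and 17.6%, and with DESeq2 1 was called. The largest log2 fold changes upwards belonged to heart muscle genes, led by *COX6A2*, a respiratory chain subunit of striated muscle, *CRYAB*, a small heat shock protein of muscle, and the myosin light chains *MYL2* and *MYL3*. *MYL7*, the atrial light chain, stood at 245, 1289 and 12.4 CPM in members, against 65.8, 46.7 and 21.5 (log2 fold change 2.35, SE 0.78, adjusted p = 0.039). *MYL3* stood at 53.4, 877 and 24.4 CPM against 18.3, 21.1 and 16.0 (log2 fold change 2.80, SE 0.79, adjusted p = 0.0199), and *COX6A2* at 9.86, 81.6 and 2.18 CPM against 2.61, 3.08 and 1.36 (log2 fold change 3.50, adjusted p = 0.00141). E19 HS was far above the others in each. Without that library *MYL7* was at 0.88 (adjusted p = 0.201), *COX6A2* at 1.45 (adjusted p = 0.104) and *CRYAB* at 1.07 (adjusted p = 0.162). With DESeq2 *MYL7* (adjusted p = 0.152), *MYL3* (adjusted p = 0.0614) and *MYL2* (adjusted p = 0.217) were not called. Against comparison barcodes at 1 to 10% mitochondrial UMIs *MYL7* stood at 2.41 (edgeR, adjusted p = 0.0733). *MYH6*, the heavy chain, went against the group at 6.57, 6.67 and 1.09 CPM against 20.3, 6.57 and 30.7 (log2 fold change -2.26, adjusted p = 0.016).

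The heart transcripts sat in a small set of barcodes. At least 10 UMIs over the 7 cardiomyocyte markers were found in 41 of 735 members of E19 HS, or 5.58% (4.03 to 7.49%), against 22 of 2210 comparison barcodes, or 0.995% (0.625 to 1.503%), although the latter were deeper. In E19 HSTS they were 9 of 593 (1.52%) against 13 of 1478 (0.880%), and in E16 HS 4 of 1123 (0.356%) against 14 of 1397 (1.00%), with overlapping intervals in both. The 41 barcodes held 97.9% of the marker UMIs of the E19 HS members. With reference clusters at the finer resolution of 1.0, a cardiomyocyte-like class took 1.18%, 5.31% and 0.178% of members against 0.406%, 0.452% and 0.501%. The comparison of all genes hardly depended on them, since 444 genes were higher and 3166 lower without such barcodes, an alternative added after the data were seen.

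Markers of the remaining lineages differed by lineage, beside the 32.6% of all genes that were lower. Of 7 mesenchyme markers 6 were lower, 3 of them collagens of the matrix list. Of 7 haematoendothelial markers 5 were lower, with *KDR*, the main VEGF receptor, at 0.822, 0.742 and 1.09 CPM against 13.3, 25.6 and 12.2 (log2 fold change -4.03, SE 0.40, adjusted p = 7.63e-05) and *PECAM1* at -2.30 (adjusted p = 0.00186). Of 4 early neuron markers 3 were lower, with *NEFM*, the medium neurofilament, at 8.22, 45.2 and 6.91 CPM against 201, 256 and 20.8 (log2 fold change -2.83, adjusted p = 0.000312). *STMN2*, a tubulin regulator of growing axons, was less reduced, at 138, 173 and 105 CPM against 430, 356 and 130 (log2 fold change -0.99, adjusted p = 0.00369). Of 8 somite markers 5 were lower, and 2 under TMM scaling, among them *PAX3*, a somite and neural crest factor, at 10.7, 6.67 and 11.3 CPM against 34.9, 16.6 and 26.7 (log2 fold change -1.40, adjusted p = 0.00075). Platelet genes were at the lower end, with *GP1BB* at 0, 0.742 and 5.09 CPM against 16.3, 7.24 and 94.6 (log2 fold change -4.27, adjusted p = 1.96e-05). Of 5 gut markers 1 was higher, *KRT7*, a simple keratin, at 11.5, 13.3 and 36.7 CPM against 8.71, 8.58 and 16.3 (log2 fold change 0.84, adjusted p = 0.0162). Of 3 caudal progenitor, 4 limb ectoderm, 4 urogenital and 2 neural crest markers tested, 0 were called by edgeR on the first scale, where 0 had an unadjusted p under 0.05, and 0 were called by DESeq2. Under TMM scaling 1 limb ectoderm marker was higher, *FGF8* at 0.80 (adjusted p = 0.0452). *CDX2*, a tail bud factor, stood at -0.13 on 90 UMIs in members (adjusted p = 0.817). Of 6 myeloid markers 2 were lower, of 4 trophoblast markers 1 was, and of 2 notochord markers both were. Of 2 skeletal myogenic markers 0 were called on the first scale, and *TNNC1*, a troponin of slow and heart muscle, was higher under TMM scaling at 76.4, 879 and 60.004 CPM against 42.0, 27.4 and 53.1 (log2 fold change 2.42, adjusted p = 0.0222). The forebrain marker tested, *SIX6*, stood at 0, 20.02 and 0.727 CPM against 5.01, 4.69 and 0.226 and was not called (adjusted p = 0.312). For germ cells and surface ectoderm 0 markers had enough UMIs to be tested.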

How the data were processed

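The authors sequenced 10x 3′ libraries of 3 embryo suspensions and deposited a UMI count matrix per library, made with Cell Ranger 6.1.2 on the genome Ovis_aries_genome_v1.0. The submitters' notes also name Seurat 4.1.1 and R 4.1.2. The deposited values are raw counts over 26478 genes, of which 63.0% carry a symbol, and nothing was normalised before deposit.

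Here barcodes were filtered at 200 to 6000 genes and 1000 to 30000 UMIs. No doublet caller was run and no doublets were removed. UMIs of members and of comparison barcodes were summed per library (6 sums), and the 11 mitochondrial genes were left out of totals and tests. Genes with at least 30 UMIs were tested with the quasi-likelihood test of edgeR 4.0.16 in R 4.3.3, with the library as a block, because both sums of a library come from 1 suspension. The p-values were Benjamini-Hochberg adjusted, with calls below 0.05. TMM scaling, DESeq2 1.42.0, all UMIs as the total, no count filter, no block, leaving out each library, other limits on mitochondrial share, depth and genes, and other assignments were tried. With 1 library per condition, conditions were not tested against each other. Shares have exact 95% binomial intervals, which cover counting error only.

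Reference classes came from scanpy 1.11.5 (2000 variable genes, 25 components, resolution 0.25) and were named from marker lists. The scripts were tested on simulated data. Genes named were *H1-5*, *H1-1* and *CKS2*, *AHSP* and *BLVRB*, up to 4 called genes with the largest change of each list, the 10 with the largest change in each direction with a symbol, at least 100 UMIs in the higher group and the same direction in 3 libraries, and the mitochondrial genes. Other genes named were chosen after their values were seen. The members and lists were chosen with earlier results of these data known. No sequences are printed, since no genome was used here.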

Additional observations from a re-analysis of the deposited data

Results flagged for a closer look

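Cardiomyocyte markers went in opposite directions in the libraries of the 2 days. The log2 ratio of their summed level, members over comparison barcodes, was 1.09 in E19 HSTS and 3.58 in E19 HS but -0.71 in E16 HS. The difference was not tested, since each condition had 1 library. The values rest on 9, 41 and 4 members with at least 10 marker UMIs.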

How the results depend on the processing

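The count of 3633 called genes became 2137 with DESeq2, 1824 without the replicate block, 2152 below 3000 UMIs and 270 within the caudal progenitor-like class alone, which held the most members by likelihood and not by nearest neighbours, with all variable genes or at resolution 1.0. The 445 higher genes became 1621 under TMM scaling, 1210 with DESeq2, 46 without the replicate block, 21 within that class and 198 to 425 with a library left out, the lowest without E19 HSTS. The 3188 lower genes became 1720, 927, 1778 and 249 under these settings and 1835 below 3000 UMIs, where 6991 genes were tested. All other alternatives left these counts within 1.5 times. Of 78 named genes, 33 lost the call without the replicate block, *H1-5* and *H1-1* among them, 13 with DESeq2, 10 without E19 HS, 8 below 3000 UMIs, 6 without E19 HSTS and 4 each under TMM scaling and without E16 HS. *MYL7* stood at 2.55 (edgeR, adjusted p = 0.143) without E19 HSTS and at 0.19 (adjusted p = 0.883) without barcodes of heart muscle. Without extraembryonic endoderm-like barcodes the log2 fold changes of *SERPINA1*, *APOA2*, *AHSG*, *TTR* and *AMBP* turned to -0.36, -1.56, -0.058, -0.25 and -1.10, and *AHSG* stood at -0.092 below 3000 UMIs. Within the caudal progenitor-like class *AHSP*, *BLVRB*, *STMN2* and *SOX2* turned to 0.14, 0.047, 0.15 and 0.59. The 44 higher ribosomal protein genes became 28 to 46 with a library left out. The 16 lower matrix genes became 14 to 17 under all alternatives other than the single class, where 7 of 11 passed.

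Members made up 5.31%, 5.88% and 8.998% of kept barcodes at a limit of 0.2%, 6.68%, 7.68% and 10.2% at 0.5%, 5.09%, 6.14% and 6.72% below 3000 UMIs and 4.98%, 4.76% and 8.69% with at least 500 genes. Over all members, caudal progenitor-like shares of 19.4% became 3.22% by nearest neighbours, 17.4% with all variable genes and 13.3% at resolution 1.0. Gut-like shares of 18.9% became 5.79%, 15.9% and 15.1%, and somite-like shares of 8.53% became 15.2%, 12.2% and 10.04%. Spinal cord-like shares of 16.6% became 20.7% by nearest neighbours, and erythroid-like shares of 2.49% became 24.4% by nearest neighbours and 1.88% with all variable genes. The cause was not tested. Genes with few UMIs in members limit what can be said of them at this depth.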

Other observations

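Barcodes of at least 5000 UMIs with under 0.3% mitochondrial UMIs were few, with 41 of 7578 in E19 HSTS, 20 of 7708 in E19 HS and 313 of 8829 in E16 HS (3.55%, exact interval 3.17 to 3.95%). Ribosomal protein genes took 26.5%, 24.9% and 25.9% of their UMIs, against 19.7%, 23.6% and 22.5% in barcodes of at least 5000 UMIs at 0.3 to 10%. The low-mitochondrial barcodes were shallower, with medians of 6457, 6901.5 and 7289 UMIs against 10673, 8386.5 and 11030.5. Matrix genes took 0.0179%, 0.00694% and 0.276% against 0.0978%, 0.109% and 0.321%, so that the E16 HS barcodes differed little from the rest, unlike the shallow members of that library. Genes of the G2 and M phases took 0.398%, 0.372% and 0.345% against 0.245%, 0.242% and 0.313%. Replication-dependent histones took 0.284%, 0.124% and 0.0664% against 0.231%, 0.189% and 0.0747%, higher in E19 HSTS and lower in the other libraries. The values of E19 HS rest on 20 barcodes, and no test was made.

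Among E19 HS barcodes with at least 1% of UMIs on cardiomyocyte markers, 40 of 56 below 5000 UMIs were under 0.3% mitochondrial (71.4%), against 9 of 62 deeper ones (14.5%). In E19 HSTS they were 7 of 20 and 0 of 70, and in E16 HS 1 of 9 and 1 of 10.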
